A study of Mus musculus with 10 samples.

Results

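The genes described here encode Kv3 and Kv4 voltage-gated potassium channels and the KChIP proteins that bind Kv4. They are the Kv3 genes Kcnc1, Kcnc2 and Kcnc4, the Kv4 genes Kcnd1, Kcnd2 and Kcnd3, and the KChIP genes Kcnip1, Kcnip3 and Kcnip4. They were chosen by gene symbol, with earlier results of these data known. All 9 were found among 26411 genes of 1 deposited table and 55886 genes of the other. Both tables come from RNA sequencing of trigeminal ganglia of mice, the site of the cell bodies of facial sensory neurons and of the glia around them. In the surgery experiment 3 libraries came from sham-operated mice and 3 from mice with the surgery labelled pIONT, all taken 10 days later. In the injection experiment 2 libraries followed phosphate-buffered saline (PBS) and 2 followed urocortin 1 (UCN1), a peptide of the corticotropin-releasing factor family, each put into the ganglion 6 hours before. The sources used here do not give the strain, sex or age of the mice, or whether a library pooled animals. The spread behind each p-value is thus only that among these samples and may be technical.

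Kv3 channels open at strongly depolarised potentials and close fast, which shortens the action potential and lets a neuron fire at high rates. Kv4 channels pass the A-type current, which opens below the spike threshold, inactivates quickly and delays firing. KChIPs are calcium-binding proteins of the neuronal calcium sensor family that attach to the N-terminus of Kv4 subunits, bring them to the cell surface and set how fast they inactivate. In sensory ganglia these channels are known from both the large neurons of touch and muscle sense and the small neurons of pain.

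Expression is given in FPKM, reads scaled to the length of the gene and the depth of the library, so levels may be compared between genes within a table. Levels were not compared between the tables, which were built with different annotations and gene lengths. A gene is said to have risen or fallen, or to be called, where limma on log2(FPKM + 0.5) gave a Benjamini-Hochberg adjusted p under 0.05 over all genes tested, and fold changes are on that log2 scale. Depth estimated from the steps of the low FPKM values was 24.2 to 29.7 M reads (M for 1e6) within genes for the surgery libraries and 15.7 to 17.1 M for the injection libraries. Genes with a mean of at least 0.5 FPKM were tested, which left out Kcnd2 in both experiments and kept the other 8.

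The tissue label was checked against marker lists. Neurofilament and nociceptor genes were abundant in every library, with Nefh at 518 to 792 FPKM and Scn10a at 57.1 to 89.0 FPKM in the surgery experiment. The nerve injury genes separated the surgery groups, with Atf3, a stress transcription factor, at 4.09 to 6.57 FPKM in sham and 165 to 227 FPKM in pIONT. Sham 1 stood apart from the other sham libraries in pituitary genes, summed at 765 FPKM against 80.7 and 255, and in genes of oligodendrocytes and astrocytes, summed at 10.3 FPKM against 2.25 and 2.41 (Mog at 2.68 FPKM against 0.0817 and 0.195). Library pIONT 2 had the highest sum of macrophage genes, 276 FPKM where pIONT 1 and 3 had 176 and 158. Genes of inhibitory brain neurons were near 0 in all 10 libraries, with a summed level of at most 0.743 FPKM over Gad1, Gad2, Slc32a1 and Slc6a5.

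In sham ganglia Kcnd1 and Kcnip3 were the most abundant members, at means of 51.1 and 45.9 FPKM. Kcnc4 and Kcnip4 followed at 21.0 and 20.1 FPKM, and the libraries of this pair overlapped, so their order was not resolved. Kcnd3 was at 8.29 and Kcnc1 at 6.46 FPKM. Kcnip1 at 4.27 and Kcnc2 at 4.03 FPKM again overlapped. Kcnd2 was by far the lowest at 0.245 FPKM, so the Kv4 transcripts of the ganglion were mostly Kcnd1. In pIONT ganglia Kcnd1 and Kcnip3 overlapped at means of 40.5 and 35.9 FPKM, and the other neighbours that overlapped were again Kcnip4 with Kcnc4 and Kcnc2 with Kcnip1. In the PBS libraries Kcnip3 at 80.9 FPKM and Kcnd1 at 76.1 FPKM again led, and Kcnd2 was again last at 0.351 FPKM. The neighbours that overlapped were Kcnd3 with Kcnip4 in PBS, and Kcnd1 with Kcnip3 and Kcnip4 with Kcnc1 in UCN1.

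The first comparison asked how these genes differed in the ganglion 10 days after pIONT. Of the 8 tested members 6 fell and 0 rose, against 12.3% of all 14672 tested genes that fell and 10.5% that rose (22.8% in either direction). Their median log2 fold change was -0.30, with a range of -0.47 to -0.14, while the median over all tested genes was -0.02. Log2 fold changes were below 0 in 8 of 8, against 55% of all tested genes, and an unadjusted limma p under 0.05 was found in 8 of 8, against 37%. All 8 were lower in every pIONT library than in every sham library, a pattern of 24.7% of all tested genes. The opposite pattern, found in 0 of 8, was that of 18.7%, and groups did not overlap in either direction in 43.4% of all tested genes. The largest change was that of Kcnip1, which dropped to a mean 31.0% below sham, and the smallest that of Kcnip4, 9.8% below. In bulk tissue, fewer neurons that express a gene and less RNA per neuron cannot be told apart.

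**Figure D1:**
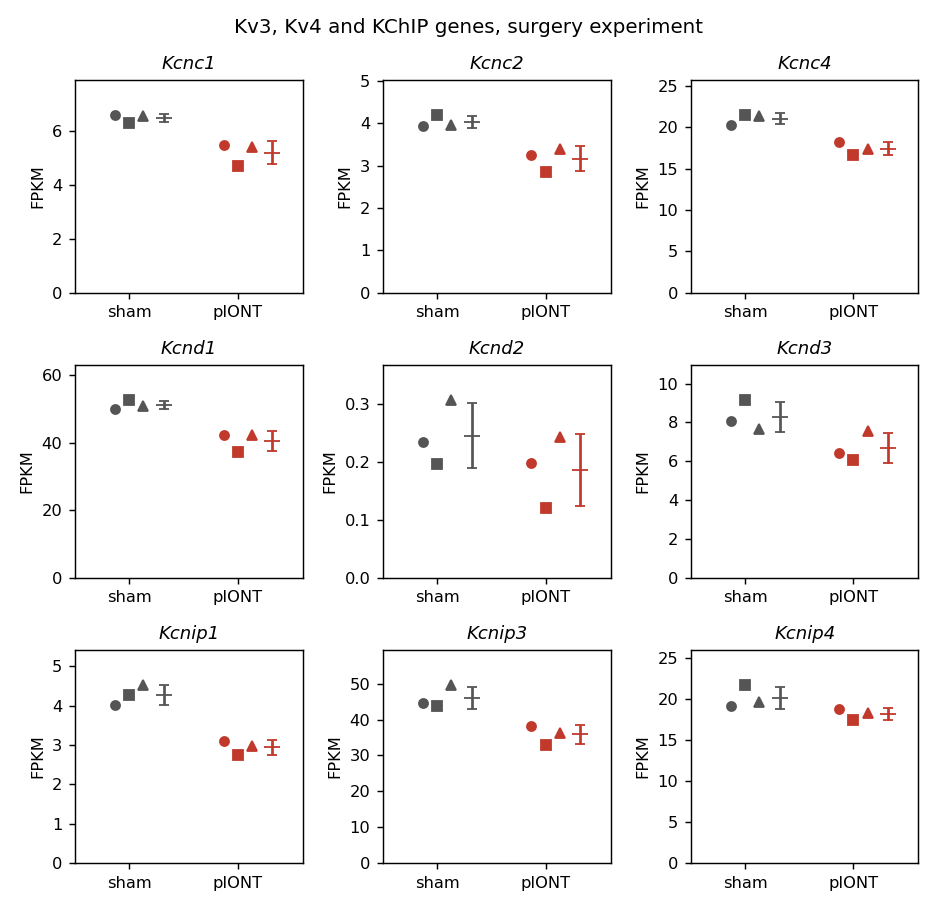
FPKM of the 9 members (y axes, from 0) in 3 sham (grey) and 3 pIONT libraries (red), with circles, squares and triangles for libraries 1, 2 and 3 and the mean with its SD to the right of each group. Groups do not overlap in any panel except that of Kcnd2, and the square of pIONT 2 is the lowest pIONT point in all 9.

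Among the Kv3 genes all 3 members fell. Kcnc4 encodes Kv3.4, a Kv3 channel that inactivates fast. It had 20.3, 21.5 and 21.4 FPKM in sham 1 to 3 and 18.2, 16.7 and 17.4 FPKM in pIONT 1 to 3. The lowest sham library was thus above the highest pIONT library, and Kcnc4 dropped from 21.0 ± 0.677 to 17.4 ± 0.756 FPKM (SD, n = 3). This was a log2 fold change of -0.27 with an SE of 0.05 (limma adjusted p = 0.0103), and Kcnc4 was called in 16 of 16 alternatives. Kcnc1 encodes Kv3.1, the subunit of fast-spiking neurons. Its levels were 6.57, 6.27 and 6.55 FPKM in sham and 5.48, 4.68 and 5.39 FPKM in pIONT. The sham values lay close together, and pIONT 2 was lower than the other pIONT libraries. The log2 fold change of Kcnc1 was -0.295 (SE 0.07, limma adjusted p = 0.0216), and its call was lost without sham 1 or without sham 3 (limma adjusted p = 0.0657 and 0.0766). Kcnc2 encodes Kv3.2, which also supports fast firing. It had 3.93, 4.19 and 3.97 FPKM in sham and 3.26, 2.84 and 3.40 FPKM in pIONT. These groups did not overlap either, and the log2 fold change was -0.31 (SE 0.07, limma adjusted p = 0.0246). The Kcnc2 call was the least stable of the 6, kept in 10 of 16 alternatives with a limma adjusted p of up to 0.0783. It was lost, among others, with no filter and without sham 1, sham 2, sham 3 or pIONT 1.

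Kcnc1 lies on chromosome 7 at 46396497 to 46438704, Kcnc2 on chromosome 10 at 112271121 to 112467024 and Kcnc4 on chromosome 3 at 107438303 to 107459552 (GRCm38, as the table of the injection experiment gives them). None of their annotated exons overlaps an exon of another gene. The Kv3 values rest on about 595 to 2261 reads per gene and library in the surgery experiment, by the estimated depth.

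Of the Kv4 genes, Kcnd1 fell and Kcnd3 did not pass the test. Kcnd1 encodes Kv4.1. It had 50.0, 52.5 and 50.7 FPKM in sham and 42.2, 37.1 and 42.3 FPKM in pIONT. All sham libraries were above all pIONT libraries, and the mean dropped from 51.1 ± 1.27 to 40.5 ± 2.99 FPKM (SD, n = 3). This was a log2 fold change of -0.33 with an SE of 0.06 (limma adjusted p = 0.00978), and Kcnd1 was called in 16 of 16 alternatives. Kcnd3 encodes Kv4.3, known as a main carrier of the A-type current in small sensory neurons. Its levels were 8.08, 9.14 and 7.65 FPKM in sham and 6.41, 6.09 and 7.58 FPKM in pIONT. The lowest sham and the highest pIONT library nearly met, and the log2 fold change of -0.29 with an SE of 0.10 (limma adjusted p = 0.0683) had a 95% interval of -0.52 to -0.07. Kcnd3 passed in 3 of 16 alternatives, with TPM (limma adjusted p = 0.0485), with voom (limma adjusted p = 0.0471) and without pIONT 3 (limma adjusted p = 0.0276). Kcnd2, which encodes Kv4.2, was at 0.234, 0.196 and 0.306 FPKM in sham and 0.197, 0.120 and 0.243 FPKM in pIONT. These groups overlapped, and the values rest on only about 18 to 38 reads per library, so a difference of the size seen in Kcnd1 was not detectable at this depth.

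Kcnd1 lies on chromosome X at 7822289 to 7838280, Kcnd2 on chromosome 6 at 21215503 to 21729805 and Kcnd3 on chromosome 3 at 105452330 to 105674002 (GRCm38). The span of Kcnd3 overlaps that of the antisense gene Kcnd3os, among others. Of the exon bases of Kcnd3, 1.7% also lie in exons of other genes on the opposite strand. The sources used here do not say whether reads were counted by strand, so reads of such stretches cannot be assigned to Kcnd3 or to another gene.

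Of the KChIP genes, Kcnip1 and Kcnip3 fell and Kcnip4 did not pass the test. Kcnip1 encodes KChIP1. It had 4.01, 4.27 and 4.52 FPKM in sham and 3.11, 2.74 and 2.99 FPKM in pIONT. The gap between the groups was wider than the range of either, and Kcnip1 had the largest change of the members, -0.47 on the log2 scale with an SE of 0.07 (limma adjusted p = 0.00496), called in 16 of 16 alternatives. Kcnip3 encodes KChIP3, also known as DREAM or calsenilin, which besides binding Kv4 acts as a calcium-dependent repressor of transcription. Its levels were 44.5, 43.8 and 49.5 FPKM in sham and 38.2, 33.0 and 36.4 FPKM in pIONT. Sham 3 was the highest of these libraries, and the log2 fold change of -0.35 with an SE of 0.07 (limma adjusted p = 0.014) was called in 15 of 16 alternatives, all but the 1 without sham 3 (limma adjusted p = 0.0501). Kcnip4 encodes KChIP4, a form of which is known to slow the inactivation of Kv4. It had 19.2, 21.6 and 19.6 FPKM in sham and 18.8, 17.4 and 18.3 FPKM in pIONT. Sham 1 and pIONT 1 lay close together, and the log2 fold change of -0.14 with an SE of 0.06 (limma adjusted p = 0.122) had a 95% interval of -0.281 to -0.006 and was called in 0 of 16 alternatives.

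Kcnip1 lies on chromosome 11 at 33629339 to 33993152, Kcnip3 on chromosome 2 at 127456498 to 127522094 and Kcnip4 on chromosome 5 at 48389502 to 49524907 (GRCm38). Of the exon bases of Kcnip4, 7.4% also lie in exons of other genes on the other strand. Values per gene do not tell which of the 5 annotated transcripts of Kcnip1, 4 of Kcnip3 or 8 of Kcnip4 were present.

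The 250 bases before the start are shown for 3 of the members that fell, because these genes moved together and these windows overlap no annotated exon. They were taken from RefSeq on GRCm38.p6, 5′ to 3′ on the strand of the gene. For Kcnip1 and Kcnip3, which have 3 RefSeq starts each, the start farthest upstream is shown. Capitals mark matches, on both strands, to the GC box GGGCGG, the AP-1 letters TGANTCA and the letters TGACG, the core of the cAMP response element. Kcnc1 is read at chr7:46396218-46396467 on the plus strand, Kcnip1 at chr11:33993194-33993443 and Kcnip3 at chr2:127522095-127522344, both on the minus strand.
Kcnc1: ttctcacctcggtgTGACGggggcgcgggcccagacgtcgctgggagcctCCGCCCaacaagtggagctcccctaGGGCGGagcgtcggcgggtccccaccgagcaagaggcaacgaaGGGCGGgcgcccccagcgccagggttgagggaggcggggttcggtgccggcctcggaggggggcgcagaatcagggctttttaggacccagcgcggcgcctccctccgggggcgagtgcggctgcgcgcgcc
Kcnip1: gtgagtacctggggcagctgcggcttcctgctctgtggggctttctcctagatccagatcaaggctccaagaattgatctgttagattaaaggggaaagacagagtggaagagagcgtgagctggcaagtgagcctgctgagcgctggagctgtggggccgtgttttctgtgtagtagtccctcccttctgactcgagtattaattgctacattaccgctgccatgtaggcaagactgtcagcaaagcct
Kcnip3: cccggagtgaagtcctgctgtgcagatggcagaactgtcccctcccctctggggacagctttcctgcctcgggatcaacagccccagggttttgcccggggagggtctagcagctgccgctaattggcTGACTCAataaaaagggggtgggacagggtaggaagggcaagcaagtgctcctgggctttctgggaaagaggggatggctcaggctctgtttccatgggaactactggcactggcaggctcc

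The Kcnc1 window held 3 GC boxes and 1 match to TGACG, the Kcnip3 window 1 AP-1 match, and the Kcnip1 window none of these letters. RefSeq windows were matched for 8 of the 9 members, 16 windows in all, with none for Kcnd1. GC boxes were found in 6 of the 16, against 32.7% of all 32851 windows of this length, AP-1 letters in 2 (6.7% of all) and TGACG in 2 (17.8% of all). Some of the 16 overlap, as in Kcnc2. By gene, with any window counted, these were found in 6, 2 and 2 of 8 members, against 35.4%, 7.8% and 19.8% of all genes. The 6 with a GC box include Kcnip1 and Kcnip3, each through a window that is not shown. The full cAMP response element TGACGTCA (1.5% of all, and itself a match to TGACG) and TTCAGCACC, part of the site of the neuronal repressor REST (0.3% of all), were found in 0 of the 16. Such a match is a description of the letters in the window.

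Kv3 and Kv4 channels work with further subunits, listed here as 12 partner genes, of which 9 were tested in each experiment. Kcne2 and Kcne3 were below the filter in both, and Kcne1 was not analysed in the surgery experiment and was at 0 in the injection experiment. The partner genes were chosen with earlier results of these data known, so their counts are a description. Of the 9 tested, 5 fell and 0 rose after pIONT, against 12.3% and 10.5% of all tested genes. Their median log2 fold change was -0.24, against -0.02 over all tested genes. Kcnip2, the KChIP known best from the heart, had 29.9, 33.6 and 30.3 FPKM in sham and 25.1, 21.5 and 21.2 FPKM in pIONT. These groups did not overlap, and Kcnip2 fell by 0.46 (limma adjusted p = 0.00819). Dpp6 and Dpp10, membrane proteins that speed Kv4 gating, fell by 0.30 and 0.44 (limma adjusted p = 0.0241 and 0.0196). Kcnab2 and Kcnab1, which encode cytosolic beta subunits that bind several Kv channels, fell by 0.465 and 0.241 (limma adjusted p = 0.0116 and 0.0264). Ncs1, a calcium sensor that also binds Kv4, was at 37.8 ± 1.44 FPKM in sham and 41.2 ± 1.23 FPKM in pIONT (SD, n = 3) and did not pass (log2 fold change 0.12, limma adjusted p = 0.0984). Kcnab3, Kcne4 and Kcne5 did not pass either, at -0.21, -0.03 and 0.03 (limma adjusted p = 0.145, 0.915 and 0.881). Ncs1, Kcnab3, Kcne4 and Kcne5 are named after their values were seen. Dpp6 and Kcnab1 were called in 11 and 10 of 16 alternatives, and 2 partners were called without sham 3, 4 without pIONT 3 and 3 without any other single library.

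**Figure D2:**
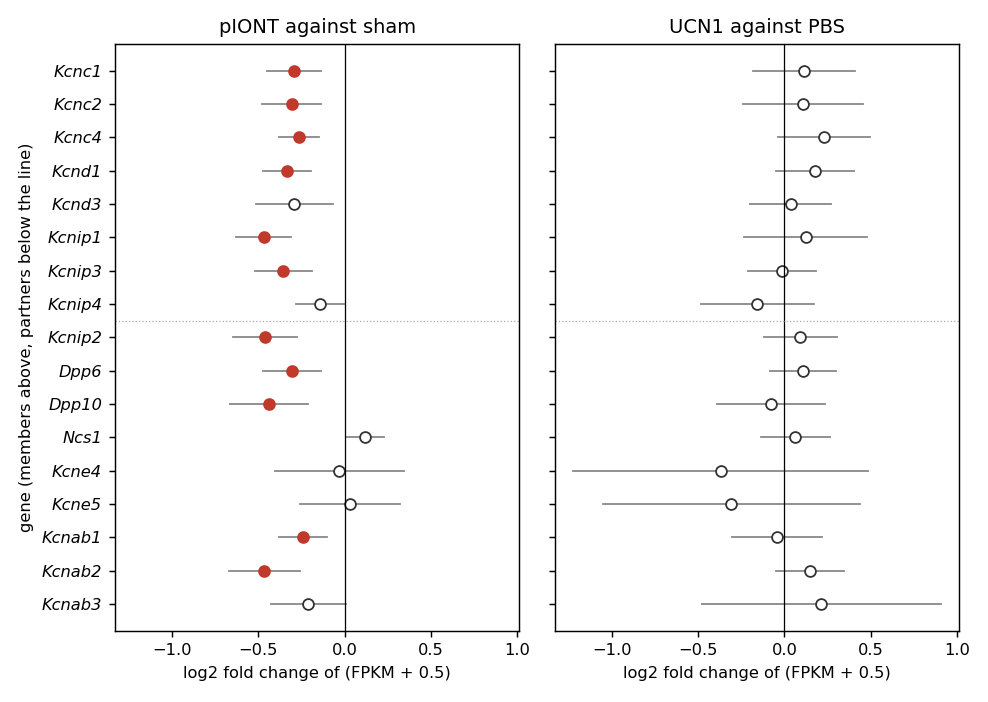
Log2 fold changes of FPKM + 0.5 (x axis) with 95% intervals from limma for 8 members above the dotted line and 9 partners below it, in both comparisons. Filled points passed an adjusted p of 0.05: 6 members and 5 partners lie left of 0 after pIONT, and no point is filled for UCN1 against PBS.

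The sums of the Kv3, Kv4 and KChIP genes were all lower after pIONT, and the make-up of the Kv3 and Kv4 sums overlapped between the groups. The sum of the 3 Kv3 members was 30.7, 31.9 and 31.9 FPKM in sham and 26.9, 24.2 and 26.2 FPKM in pIONT. Kcnc4 made up 66.7% ± 0.732 of it in sham and 67.6% ± 1.25 in pIONT (SD, n = 3). The ratio of the Kv3 to the Kv4 sum also overlapped, at 0.529 ± 0.0138 in sham and 0.544 ± 0.0197 in pIONT (SD, n = 3). The share of Kcnd1 in the Kv4 sum was 85.7% ± 0.775 in sham and 85.5% ± 1.05 in pIONT (SD, n = 3). The Kv4 sum was 59.6 ± 1.93 FPKM in sham and 47.4 ± 3.63 FPKM in pIONT (SD, n = 3). The KChIP sum, which takes in the partner Kcnip2, was 102 ± 3.50 and 79.5 ± 5.35 FPKM (SD, n = 3), and the ratio of the Kv4 to the KChIP sum was 0.587 ± 0.0192 and 0.596 ± 0.0340. Within the KChIP sum the shares of Kcnip4 and Kcnip1 did not overlap between the groups. The share of Kcnip4 was 19.6%, 20.9% and 18.8% in sham and 22.1%, 23.3% and 23.2% in pIONT, while that of Kcnip1 was 4.11%, 4.14% and 4.35% in sham and 3.65%, 3.67% and 3.79% in pIONT. Kcnip1 over Kcnip4 was 0.210, 0.198 and 0.231 in sham and 0.165, 0.158 and 0.163 in pIONT. In 6 of 16 such sums, shares and ratios the groups did not overlap, and each of these had an exact two-sided permutation p of 0.1, the smallest that 3 against 3 libraries allow (0.267 after Benjamini-Hochberg adjustment over the 16). None of the 16 can pass a threshold of 0.05 in this design.

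**Figure D3:**
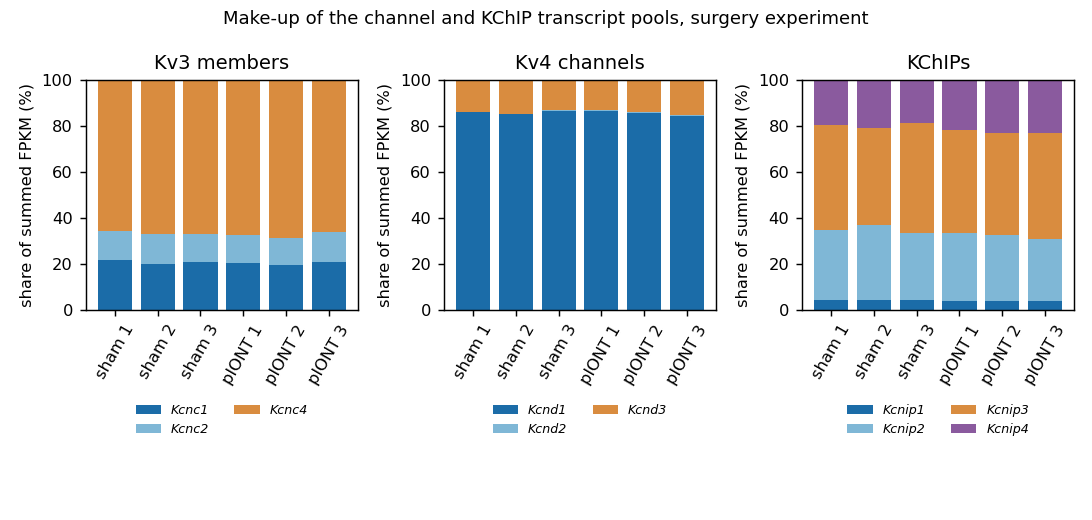
Share of each gene in the summed FPKM (y axes, percent, stacked to 100) of the 3 Kv3 members, the 3 Kv4 members and the 4 KChIP genes in each library of the surgery experiment, with the partner Kcnip2 included. The Kcnip4 part of the KChIP bars is 18.8% to 20.9% in sham and 22.1% to 23.3% in pIONT, while Kcnd1 takes 84.4% to 86.5% of the Kv4 bars in all 6 libraries.

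Libraries and cell types that moved with these results are given here as measured. Library pIONT 2 was the lowest pIONT library in all 9 members, and the share of all genes with this pattern was not computed. Besides the most macrophage RNA it had the highest sum of nerve injury genes, 3044 FPKM against 2280 and 1900 in pIONT 1 and 3. Its satellite glia sum was the highest of the pIONT libraries, and its sums of large- and small-diameter neuron genes were the lowest. Without pIONT 2 the same 6 members were called, and the median log2 fold change was -0.24. Without sham 1, the library with the most pituitary and oligodendrocyte RNA, Kcnc4, Kcnd1, Kcnip1 and Kcnip3 were called and the median was -0.31. Sham 3 came next in pituitary RNA, with a sum of 255 FPKM where the pIONT libraries had 117 to 132. Without sham 3 the calls were 3 of 8, Kcnc4, Kcnd1 and Kcnip1, at a median of -0.31, and all genes called lower were 767 in place of 1807 (all called higher 922 in place of 1537). All genes called lower were 1042 without sham 1, 989 without sham 2 and 1204 without pIONT 2.

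Neuronal genes moved in both directions. Of 8 pan-neuronal genes the nuclear protein Rbfox3 and the synaptic protein Snap25 fell by 0.35 and 0.59, and Elavl3, Uchl1 and Prph rose by 0.37, 0.22 and 0.23 on the log2 scale. Elavl4, Syt1 and Map2 did not pass, at -0.215, -0.143 and -0.1, and the median of the list was -0.122. The summed level of this list was 2130 to 2307 FPKM in sham and 2419 to 2514 FPKM in pIONT. Most of that sum was Uchl1, at means of 1156 and 1346 FPKM, and Prph, at 749 and 875 FPKM. Of 8 genes of large-diameter neurons 5 fell and 1 rose, at a median log2 fold change of -0.346. Nefh was at -0.43, Pvalb (parvalbumin) was the lowest at -1.41, and Spp1 rose by 0.69. Ntrk2 and Ntrk3 did not pass, at -0.05 and -0.08. The sum of the list was 1837 to 2016 FPKM in sham and 1452 to 1624 FPKM in pIONT. Of 10 genes of small-diameter neurons 6 fell, at a median of -0.38 (Scn10a, the sodium channel of nociceptors, at -0.41 and Trpv1 at 0.05). Their sums were 801 to 867 FPKM in sham and 613 to 721 FPKM in pIONT. For the 8 tested channel members the median was -0.301. The sum of 7 macrophage genes was 68.1 to 134 FPKM in sham and 158 to 276 FPKM in pIONT, with 5 higher (median 1.08). The sum of 7 myelinating Schwann cell genes was 4633 to 5140 FPKM and 3853 to 4122 FPKM, with 5 lower (median -0.322). The sum of 6 satellite glia genes was 2463 to 2651 FPKM in sham and 2826 to 3494 FPKM in pIONT, with Glul and Cdh19 higher. No marker of these lists was at 0 in all libraries. The part of these cell types in the changes of the channel genes was not tested.

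The second comparison asked whether UCN1 in the ganglion changed these genes within 6 hours. Of the 8 tested members 0 rose and 0 fell in limma, against 0.304% and 0.297% of all 16139 tested genes (0.601% in either direction), and 0 of the 8 had an unadjusted p under 0.05, against 13.1% of all tested genes. With voom on estimated reads 0 of the 8 were called as well, where 167 of 15753 genes were called higher and 191 lower. The median log2 fold change of the members was 0.11, with a range of -0.16 to 0.23, and that of all tested genes was -0.01. It was below 0 in 2 of the 8, against 51.5% of all tested genes. The groups did not overlap in 2 of the 8 members, Kcnc4 and Kcnd1, against 45.5% of all tested genes. Both were higher in UCN1, a pattern of 21.8% of all tested genes, while 23.7% were lower in both UCN1 libraries.

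**Figure D4:**
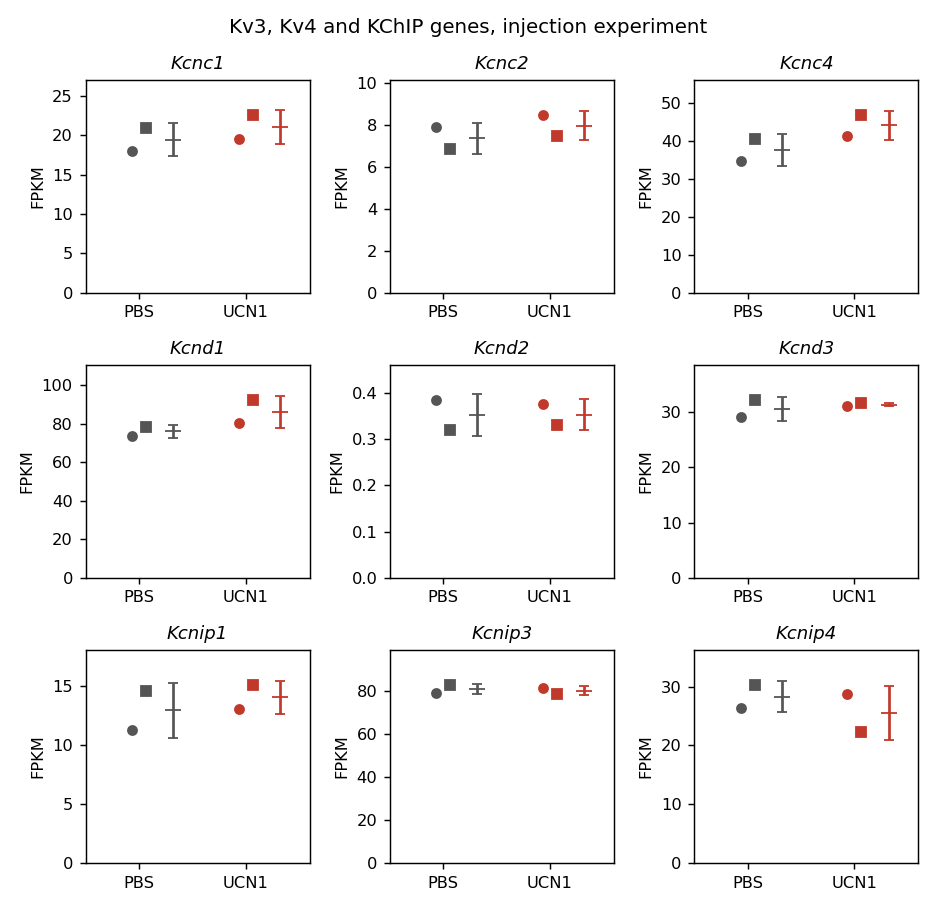
FPKM of the 9 members (y axes, from 0) in 2 PBS (grey) and 2 UCN1 libraries (red), with circles and squares for libraries 1 and 2 and the mean with its SD to the right of each group. Groups overlap in all panels except those of Kcnc4 and Kcnd1, where both UCN1 points lie above both PBS points.

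Kcnc4 had 34.7 and 40.6 FPKM in PBS 1 and 2 and 41.4 and 46.9 FPKM in UCN1 1 and 2. PBS 2 and UCN1 1 lay close together, and the log2 fold change of 0.23 with an SE of 0.12 (limma adjusted p = 0.44) had a 95% interval of -0.04 to 0.49. Kcnd1 had 73.7 and 78.5 FPKM in PBS and 80.2 and 92.3 FPKM in UCN1. Its log2 fold change was 0.18 with an SE of 0.10 (limma adjusted p = 0.482), with a 95% interval of -0.05 to 0.40. For both genes PBS 2 lay closer to UCN1 1 than to PBS 1.

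The other Kv3 members overlapped between the groups. Kcnc1 was at 18.0 and 21.0 FPKM in PBS and 19.6 and 22.6 FPKM in UCN1, with a 95% interval of -0.18 to 0.41 for its log2 fold change. Kcnc2 was at 7.88 and 6.84 FPKM in PBS and 8.46 and 7.47 FPKM in UCN1, with an interval of -0.24 to 0.46. Among the Kv4 genes, Kcnd3 was at 29.1 and 32.2 FPKM in PBS and 31.2 and 31.6 FPKM in UCN1, with an interval of -0.20 to 0.27. Kcnd2 was at 0.383 and 0.319 FPKM in PBS and 0.376 and 0.329 FPKM in UCN1, or about 28 to 33 reads per library. Kcnd2 thus was again too low for a test.

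For the KChIP genes the intervals also held 0. Kcnip3 differed least, at 79.3 and 82.5 FPKM in PBS and 81.5 and 78.7 FPKM in UCN1, with a log2 fold change of -0.01 and a 95% interval of -0.21 to 0.18. Kcnip1 was at 11.3 and 14.5 FPKM in PBS and 13.0 and 15.0 FPKM in UCN1, with an interval of -0.23 to 0.48. Kcnip4 was at 26.4 and 30.2 FPKM in PBS and 28.7 and 22.3 FPKM in UCN1, with an interval of -0.48 to 0.17. A fall as large as that of Kcnip1 after pIONT lies inside the interval of Kcnip4 and outside those of the other 7 tested members. A p that missed the threshold does not show that UCN1 left these genes as they were.

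Of the 9 tested partner genes 0 were called in the injection experiment, against 0.601% of all tested genes. An unadjusted limma p under 0.05 was found in 0 of the 9, against 13.1%. With voom 0 were called, where 167 of 15753 genes were called higher and 191 lower. The log2 fold changes of the partners ranged from -0.37 to 0.21. Kcnab2, the partner with the highest level, was at 834 and 905 FPKM in PBS and 930 and 995 FPKM in UCN1 (log2 fold change 0.15, limma adjusted p = 0.505). Genes of neighbouring tissues differed between these groups. The sum of 8 pituitary genes was 123 and 124 FPKM in the PBS libraries and 9.2 and 9.6 FPKM in the UCN1 libraries, with Pomc, Gh and Prl called lower and Lhb at 0 in all 4 libraries. Of 6 genes of meningeal fibroblasts 3 were called lower (Mfap4, Fmod and Slc47a1), with sums of 487 to 623 FPKM in PBS and 458 to 476 FPKM in UCN1. Their part in the values of the channel genes was not tested.

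The members' values in both comparisons are set side by side because the experiments share no library. Kcnc1, Kcnc2, Kcnc4, Kcnd1, Kcnd3 and Kcnip1 had negative values after pIONT and positive ones after UCN1, as in Kcnd1 at -0.33 and 0.18, and Kcnip3 and Kcnip4 were negative in both. The UCN1 signs of Kcnd3, Kcnip1, Kcnip3 and Kcnip4 changed when a single library was left out. How many of all genes had opposite signs was not computed. Only the values after pIONT passed a test, in 6 of these 8 genes. The difference between the comparisons was not tested, since the surgery and the injection libraries stand in tables made in different ways.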

How the data were processed

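RNA of 10 libraries of mouse trigeminal ganglion was measured, 3 sham, 3 pIONT, 2 PBS and 2 UCN1. The labels' protocols name TRIzol for extraction and NEBNext Ultra II for the libraries. The authors deposited 1 table of FPKM per experiment. The submitters' processing notes name the tools STAR, HTSeq and DESeq2 and GRCm39 as build, without versions or roles. Of the identifiers found in GENCODE vM21 (GRCm38), 1.99% matched its start and end in the surgery table and 99.42% in the injection table, whose coordinates are therefore those of GRCm38. Symbols came from GENCODE vM21 by identifier, for 25166 and 55141 genes, and Kcne5 through its RefSeq synonym.

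An item of the partner list is not reported here. Members, partner genes and markers were chosen with earlier results of these data known. Each table was fitted alone, on genes with a mean of at least 0.5 FPKM, in R 4.3.3 with the moderated test of limma 3.58.1, two-sided, without covariates. Values entered as log2(FPKM + 0.5), the prior variance followed the mean, and p-values had Benjamini-Hochberg adjustment over all genes tested. The fit was also tested on simulated data with known changes. These were larger than the changes of the members, so the simulation does not show how often changes of that size are called. Depth was estimated from low FPKM values, which were whole multiples of a step times gene length within 0.1 reads, up to 20 reads, for 92.6% to 93.0% of values with exon union length (surgery) and 98.8% to 99.0% with mean transcript length (injection). Reads per gene are such estimates, rounded. Injection libraries 1 and 2 are numbered 1 and 3 in the table. The text names all 9 members, the up to 6 called partners with the smallest p, the partner with the highest level and the sums of the marker lists, and other genes after their values were seen. Alternatives were the pseudocount, the filter, TPM, median-of-ratios scaling, no trend, array weights, voom, a replicate block and leaving out each library, 16 for the surgery and 14 for the injection experiment.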

Additional observations from a re-analysis of the deposited data

How the results depend on the processing

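After pIONT the log2 fold changes of the 8 tested members kept their sign in all 16 alternatives each, and the number called lower was 5 to 7 under the 10 that change a setting and 3 to 7 over those that leave out 1 library. For the partners, 5 of which were called, these ranges were 3 to 5 and 2 to 4. Over all genes, leaving out 1 library gave 922 to 1389 called higher (1537 with all) and 767 to 1580 called lower (1807 with all). The sources used here do not say whether replicate numbers pair libraries. Deviations from the group means correlated at -0.06, -0.2 and 0.07 between same-numbered surgery libraries and at -0.21 to 0.23 between the others. In the injection experiment the deviations of 2 libraries per group mirror each other. The 0.04 of both numbers is thus 1 value and cannot decide on pairing. With a replicate block 5 members (all but Kcnc2 of the 6) and 3 partners were called lower after pIONT, and 1032 of all genes.

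After UCN1 no member or partner was called in any of 14 alternatives, while the number of all genes called higher and lower (49 and 48) was 0 and 2 with no filter, 1 and 4 with no trend, 167 and 191 with voom, 124 and 136 with a replicate block, and 84 higher at a filter of 2 FPKM. Leaving out 1 library gave 0 to 19 higher and 4 to 19 lower, where the lone library of a group is assumed to vary like the others. The cause of these shifts was not tested. Values of genes that were not called changed sign when 1 library was left out. After pIONT Kcne4 ranged from -0.133 to 0.089 and Kcne5 from -0.062 to 0.082. After UCN1 Kcnd3 ranged from -0.034 to 0.107, Kcnip1 from -0.052 to 0.298, Kcnip3 from -0.043 to 0.016 and Kcnip4 from -0.335 to 0.024. Among the members depth limits Kcnd2, whose log2 fold changes with no filter were -0.12 and 0.00 (limma adjusted p = 0.51 and 1). The added 0.5 FPKM is above the levels of Kcnd2 and shrinks these values. Its mean FPKM after pIONT was 23.9% below sham, with groups that overlapped.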

Other observations

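The balance of the subunit genes in the injection experiment was also computed. Kcnc4 made up 57.3% and 59.4% of the summed FPKM of the 3 Kv3 members in PBS and 59.7% and 61.0% in UCN1. Kcnd1 made up 71.4% and 70.7% of the Kv4 sum in PBS and 71.8% and 74.3% in UCN1. The sum of the Kv4 genes over that of the KChIP genes was 0.565 and 0.593 in PBS and 0.585 and 0.683 in UCN1. An exact two-sided permutation test cannot give a p below 0.333 for 2 against 2 libraries, and the smallest after Benjamini-Hochberg adjustment over 16 quantities was 0.667.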
